A study of Arabidopsis thaliana with 4 samples.

Results

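The core cell cycle genes of Arabidopsis thaliana are the cyclins, cyclin-dependent kinases (CDKs), CDK inhibitors, E2F transcription factors and replication-licensing factors that carry a plant cell from one division to the next. Here they were 59 genes chosen by locus code, out of 23922 loci with a row in the count table, and all 59 had a row. They were placed in 4 classes. The G1/S class held 16 genes (8 D-type cyclins, CDKA;1, E2FA, E2FB, E2FC, DPA, DPB, DEL1 and RBR1). The S class held 10 genes (MCM2 to MCM7, PCNA1, PCNA2, CDC6 and CDT1A). The G2/M class held 24 genes (5 A-type and 9 B-type cyclins, 4 B-type CDKs, 3 Aurora kinases, KNOLLE (KN) and 2 CDC20 genes), and 9 genes were inhibitors (KRP1 to KRP7, SIM and LGO).

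Transcripts were counted by RNA-seq in callus, the dividing tissue that forms when explants are kept on a medium with auxin and cytokinin. Hypocotyl pieces of about 1 cm from seedlings grown for 9 days in darkness spent 5 to 6 days (6 by the stage label) at 22 °C in continuous light on medium with 11 µM of the auxin 2,4-D, 0.2 µM kinetin and 2% sucrose. Callus of Col-0 wild type was compared with callus of the plt1 plt2 double mutant, with 2 libraries of each and about 100 calli pooled for RNA. Both genotypes had the same medium and age, and the mutant alleles are not given in the sources used here. PLT1 and PLT2 encode PLETHORA transcription factors, known for keeping the root stem cell niche active, and the comparison asks how callus transcripts differ when both are disrupted.

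In the plant cell cycle, D-type cyclins with CDKA;1 phosphorylate the retinoblastoma-related protein RBR1, which releases E2F and DP factors to switch on genes of DNA replication. A- and B-type cyclins with B-type CDKs then drive mitosis, and many of their genes carry a mitosis-specific activator (MSA) element that MYB3R factors bind. KRP and SIM-type proteins bind and inhibit cyclin-CDK complexes, and cells that leave the mitotic cycle under their influence can go on replicating DNA without dividing.

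Both promoter motifs were most frequent in the class they are known for, and 4 upstream regions are printed. They are of a B-type cyclin that fell, an MCM gene that was not called, the D-type cyclin that rose and the inhibitor that fell. Each is the 250 bases before the annotated gene start, 5′ to 3′ on the gene's strand, from RefSeq's TAIR10.1. Capitals mark the MSA core AACGG or one of 3 E2F sites (TTTCCCGC, TTTGGCGC, TTTGGCGG), each on either strand.
CYCB1;1 (chr4:17624309-17624558, minus strand): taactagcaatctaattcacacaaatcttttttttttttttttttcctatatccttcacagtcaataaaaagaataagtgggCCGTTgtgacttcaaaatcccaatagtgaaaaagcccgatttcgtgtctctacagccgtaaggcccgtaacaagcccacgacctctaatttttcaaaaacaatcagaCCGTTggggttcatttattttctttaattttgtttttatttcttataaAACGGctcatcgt
MCM3 (chr5:18773707-18773956, minus strand): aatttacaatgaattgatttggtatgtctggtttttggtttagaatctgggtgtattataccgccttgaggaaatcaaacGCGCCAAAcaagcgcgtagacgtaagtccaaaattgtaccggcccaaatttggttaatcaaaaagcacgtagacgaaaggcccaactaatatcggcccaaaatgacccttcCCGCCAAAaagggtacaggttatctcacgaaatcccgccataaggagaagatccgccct
CYCD3;1 (chr4:16357171-16357420, plus strand): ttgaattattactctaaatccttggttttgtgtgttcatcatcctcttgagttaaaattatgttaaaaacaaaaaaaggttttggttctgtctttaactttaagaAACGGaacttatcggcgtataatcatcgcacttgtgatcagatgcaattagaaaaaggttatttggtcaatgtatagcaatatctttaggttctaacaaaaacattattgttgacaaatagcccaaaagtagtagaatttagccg
KRP2 (chr3:18800056-18800305, plus strand): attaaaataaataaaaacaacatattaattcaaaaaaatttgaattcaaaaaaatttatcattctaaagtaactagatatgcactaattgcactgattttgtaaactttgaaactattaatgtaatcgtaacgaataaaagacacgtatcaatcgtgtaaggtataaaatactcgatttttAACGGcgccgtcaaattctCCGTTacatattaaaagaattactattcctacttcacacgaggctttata

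Over the window from 250 bases before to 50 after the gene start, 15 of 24 G2/M promoters (62.5%) held AACGG and 11 held it in 2 or more places. The shares over all 27443 nuclear protein-coding promoters were 24.7% and 4.89%. Among the B-type cyclins 8 of 9 held it, and CYCB2;4 did not. An E2F site was present in 5 of 10 S-class promoters, all of them MCM genes, and in 4 of 16 G1/S promoters, against 1.88% of all promoters. No G2/M or inhibitor promoter held one. AACGG was also present in 5 of 9 inhibitor promoters, KRP1, KRP2, KRP3, KRP6 and KRP7. A match describes the letters of the window and is not evidence of binding.

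**Figure D1:**
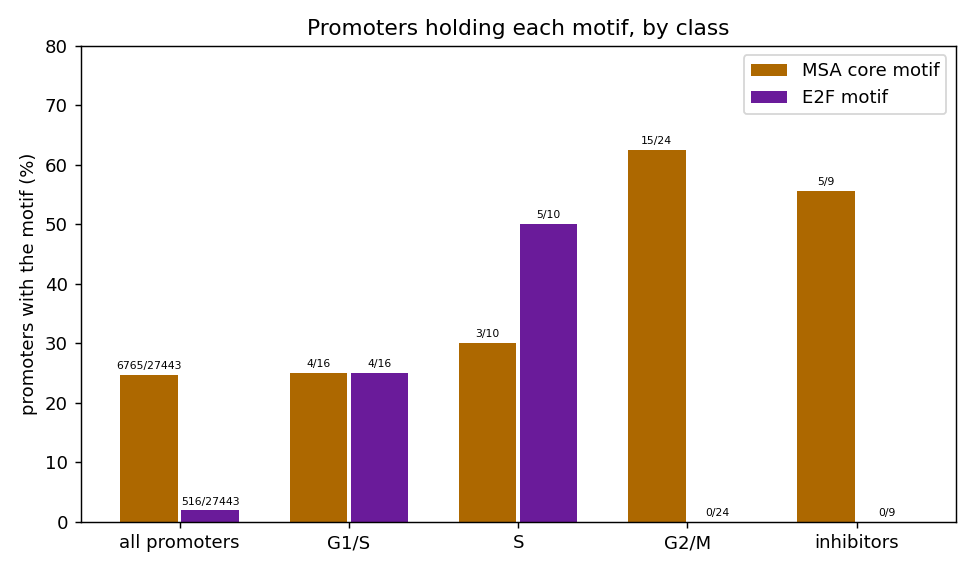
Share of promoters (y axis, %) that hold the MSA core motif or any of 3 E2F motifs, for all 27443 promoters and for each class (x axis). Numbers over the bars are promoters with the motif over promoters searched. The G2/M class stands at 62.5% for the MSA core and 5 of 10 S-class promoters held an E2F site.

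The libraries held 53907649 to 63209401 counted reads. PLT1 had levels of 171 and 166 CPM (reads scaled to the size of each library) in wild type, and its plt1 plt2 levels were 122 and 128 CPM. PLT2 stood at 63.1 and 62.1 CPM in wild type but at 182 and 179 CPM in plt1 plt2. Transcripts of a disrupted gene may persist. These totals therefore do not settle the labels, on which every direction here rests. All 10 callus and root stem cell niche markers had reads in every library. By the edgeR test described below (adjusted p under 0.05), 7 of the 10 changed, against 10.5% of all tested genes. LBD16, LBD18, WOX5, PLT3, PLT7 and BBM rose and SCR fell, and the list summed to 1980 and 1944 CPM in wild type and 2301 and 2226 CPM in plt1 plt2. The 4 root cap markers summed to 57.6 to 62.4 CPM in wild type and 26.5 to 37.5 CPM in plt1 plt2. The 4 phloem markers summed to 8.11 to 9.34 CPM and 4.62 to 4.73 CPM, and no marker of either list was at 0. The part of these markers' cell types in the results below was not tested. In bulk callus, fewer cells of a type and less RNA per cell cannot be told apart. Nothing in the labels says whether each library is a culture of its own, so every p-value reflects the spread between these libraries only, which may be technical.

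Of the 58 core cell cycle genes that could be tested, 5 changed between the genotypes (8.62%), 1 higher and 4 lower in plt1 plt2. Across all 19325 genes tested, 10.5% changed, 4.63% higher and 5.86% lower, so the share among cell cycle genes was close to the background (quasi-likelihood test of edgeR, called where the p adjusted over all genes by Benjamini and Hochberg was under 0.05). The cyclin gene CYCD3;1 rose. The cyclin genes CYCD3;3 and CYCB1;1, the Aurora kinase gene AUR2 and the CDK inhibitor gene KRP2 fell. LGO was too low to be tested. Another 15 genes had an unadjusted p under 0.05 without passing, which makes 20 of 58 at that level, against 24.6% of all tested genes. The groups did not overlap for 39 of the 58, 19 higher and 20 lower in plt1 plt2, and for 54.7% of all tested genes.

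All 5 calls ended when either wild type library was left out, with adjusted p values in edgeR from 0.0507 to 0.245, while each log2 fold change kept its sign. CYCD3;3 also failed without plt1 plt2 2 (0.172). CYCB1;1 failed in addition by DESeq2 (0.0916) and when either mutant library was left out (0.0606 without plt1 plt2 1, 0.0538 without plt1 plt2 2). In turn CYCB1;3 (0.0439), CYCB2;4 (0.0492) and SIM (0.0223) passed without plt1 plt2 2, and CYCD3;2 (0.0422) passed without plt1 plt2 1.

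The changes were small. The median size of a log2 fold change was 0.09 over the 58 genes and 0.10 over all tested genes. For 52 of the 58 the 95% interval of the change lay within 1.5-fold in both directions, which held for 76.4% of all tested genes. The cell cycle genes were also read more deeply, with a median of 2680 reads per library against 1153 and a median standard error (SE) of 0.05 against 0.07 on the log2 scale. The 6 genes whose interval reached beyond 1.5-fold were CYCA2;1, CYCD4;2, KRP1, KRP2, KRP7 and SIM. Each had a mean below 5 CPM in both genotypes.

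**Figure D2:**
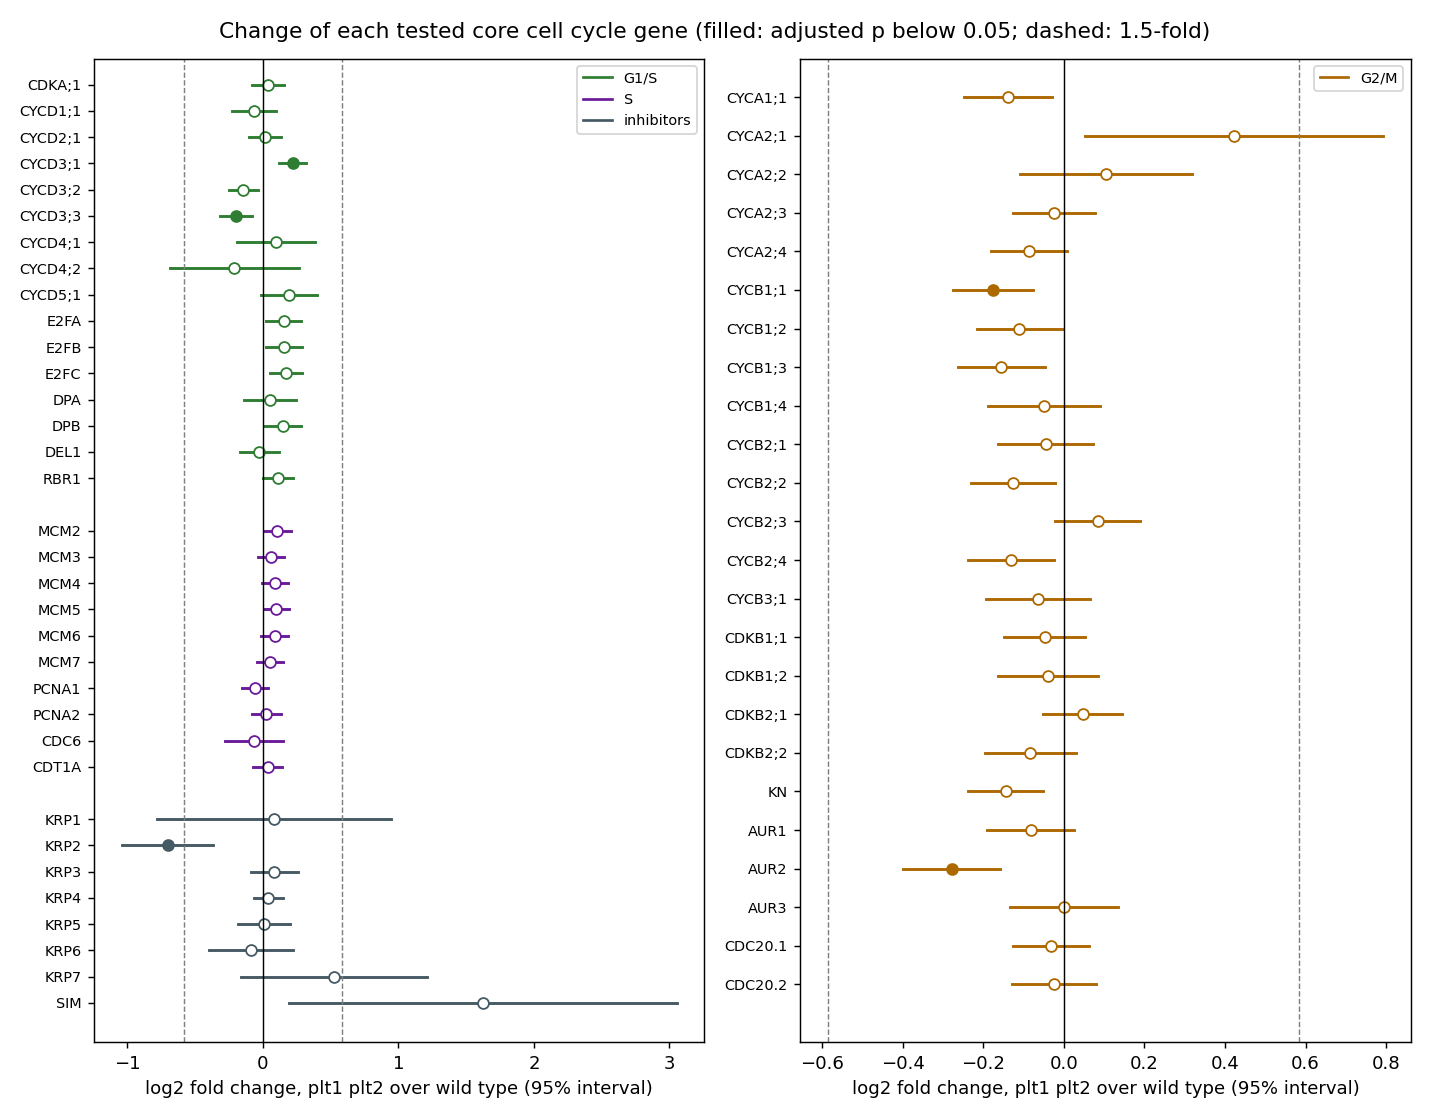
Log2 fold change of each of the 58 tested genes, plt1 plt2 over wild type (x axis), with its 95% interval (bars). Left, G1/S, S and inhibitor genes, and right, G2/M genes on a narrower axis. Filled points passed the test, open points did not, and dashed lines mark 1.5-fold. CYCD3;1 is the filled point above 0, and KRP2 is the filled point farthest below it.

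Levels within the callus spanned more than the genotypes did. On the scale of CPM per kb of exon, 12 of the 59 genes were above the 90th percentile of tested genes and 44 were above the median gene. The B-type CDK gene CDKB2;1, whose product acts at the entry to mitosis, was highest, at 97.5 averaged over both genotypes. PCNA1 and PCNA2, the sliding clamp of DNA polymerase, followed at 88.8 and 87.9, a difference within their spread between libraries. CDC20.1, an activator of the anaphase-promoting complex (83.1), and KNOLLE, the syntaxin of the dividing cell plate (81.9), came next. KNOLLE lay above CDC20.1 in both wild type libraries (86.1 and 86.0 against 83.6 and 84.5) and below it in both plt1 plt2 libraries (77.8 and 77.9 against 81.1 and 83.2). Of the exon bases of CDC20.1 and CDC20.2, 53.9% and 58.3% match other places in the genome at 95% identity or more, so reads may have been split between these neighbouring genes. At the low end stood CYCA2;1 (1.32), CYCD4;2 (1.15), KRP7 (0.570), KRP1 (0.412), SIM (0.288) and LGO (0.0164).

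**Figure D3:**
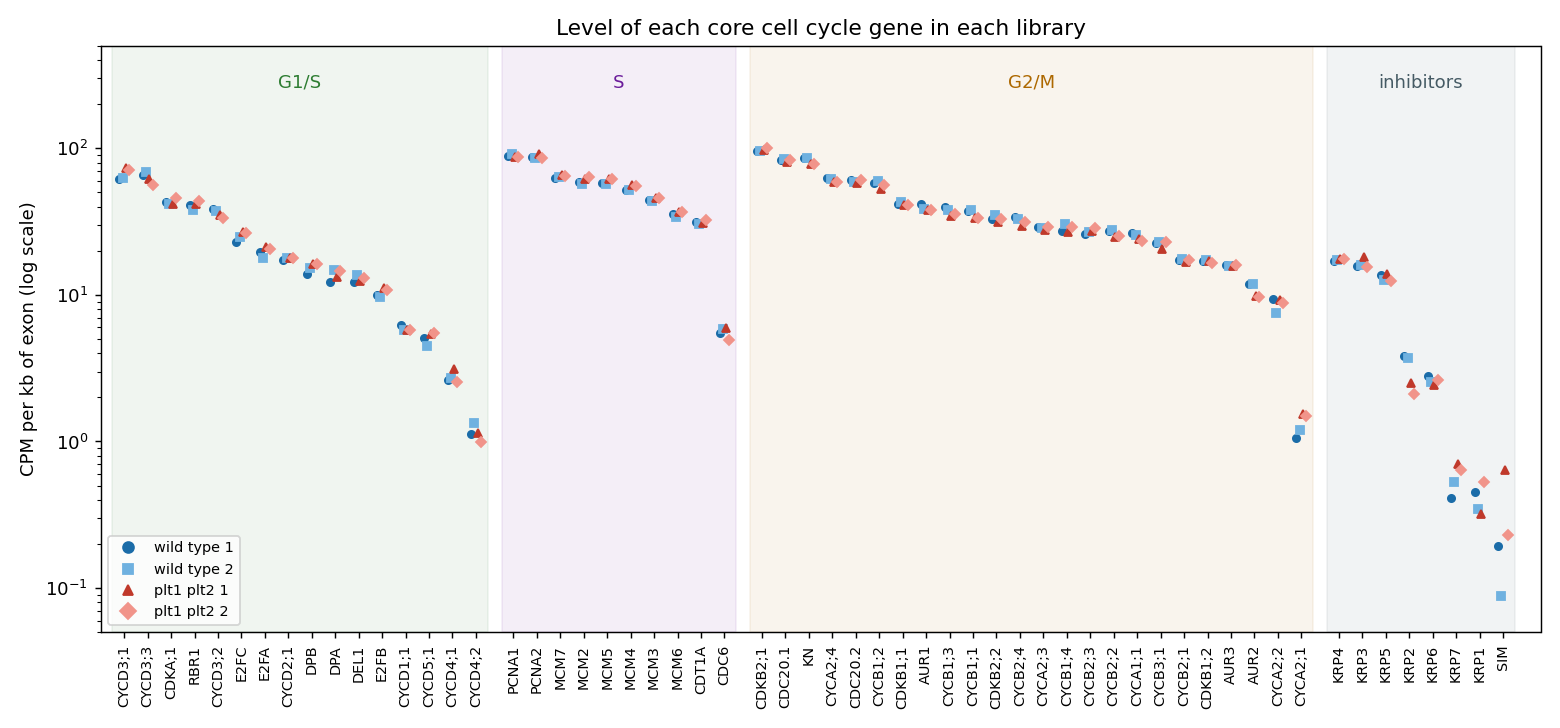
Level of each gene in each of the 4 libraries (points) in CPM per kb of exon on a log axis, ordered within each class from high to low. LGO, with 0 reads in 2 libraries, is not drawn. The 4 points of most genes lie on top of each other, while the genes range from 97.5 for CDKB2;1 to 0.288 for SIM.

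Among the D-type cyclins, which start the cycle in response to hormones and sugar, the CYCD3 genes made up most of the transcripts and changed in both directions. CYCD3;1 (AT4G34160, TAIR10.1 chromosome 4, 16357421 to 16359565) had 116 and 117 CPM in wild type and 138 and 132 CPM in plt1 plt2. Both mutant libraries lay above both wild type libraries. The log2 fold change was 0.22 ± 0.04 (SE, edgeR adjusted p = 0.0103), a rise of 16.4% in CPM. CYCD3;3 (AT3G50070, chromosome 3, 18565134 to 18566834) had 95 and 99.8 CPM in wild type and 88.8 and 81.1 CPM in plt1 plt2. Here both mutant libraries lay below both wild type libraries. The log2 fold change was -0.20 ± 0.05 (edgeR adjusted p = 0.0429). CYCD3;2, the third of the group, had 64.9 and 62.9 CPM against 59.2 and 56.4 CPM and did not pass (log2 fold change -0.14, edgeR adjusted p = 0.0857).

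Which D-type cyclin led depended on the scale. In CPM CYCD3;1 was the highest of the 8 genes in every library. Only per kb of exon did the leading gene differ between the genotypes. On the per-length scale CYCD3;3 was the leading D-type cyclin in both wild type libraries, with 33.2% and 34.4% of the family's transcripts against 31.1% and 31.0% for CYCD3;1. In both plt1 plt2 libraries the order was the other way round, 30.3% and 29.2% against 36.2% and 36.6%. The summed level of the 8 genes was 338 and 341 CPM in wild type and 350 and 332 CPM in plt1 plt2, so the groups overlapped. The remaining members did not pass the test. CYCD2;1 had a log2 fold change of 0.02, with an interval of -0.10 to 0.13, and CYCD4;2, at 1.70 against 1.47 CPM, had -0.21, with an interval of -0.69 to 0.27. A narrow interval as for CYCD2;1 bounds the change, while the low count of CYCD4;2 leaves room for a decrease of more than 1.5-fold.

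CDKA;1, the kinase partner of the D-type cyclins, had 64.7 and 62.9 CPM in wild type and 62.7 and 68.3 CPM in plt1 plt2, and the groups overlapped. In the E2F, DP and RBR1 group, 0 of 7 genes passed the test, where 10.5% of all tested genes did. DESeq2 also called none of the 7. An unadjusted p below 0.05 in edgeR was found for 4 of the 7, all with higher values in plt1 plt2. Over all tested genes 24.6% had such a p, in either direction. E2FC, a repressor of the family, had 38.4 and 41.8 CPM in wild type and 45.4 and 44.7 CPM in the mutant (0.17 on the log2 scale, edgeR adjusted p = 0.0781). The activator E2FA had 41.6 and 37.6 CPM against 44.8 and 43.2 CPM (0.15, edgeR adjusted p = 0.134). For E2FA, 3.08% of its exon bases overlap HVA22J on the other strand, which fell (-0.87). Both mutant libraries lay above both wild type libraries for 5 of the 7, namely E2FA, E2FB, E2FC, DPB and RBR1, where 27.0% of all tested genes did so. DEL1, an atypical E2F that restrains endoreduplication, had a log2 fold change of -0.03.

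Of 10 S-class genes 0 passed edgeR's test, where 10.5% of all tested genes did, and 0 passed DESeq2. In edgeR 2 (MCM2 and MCM5) had an unadjusted p below 0.05, a level that 24.6% of all tested genes reached. MCM2 to MCM7 encode the 6 subunits of the ring-shaped helicase loaded at replication origins. MCM2 had 189 and 182 CPM in wild type and 196 and 202 CPM in the mutant (log2 fold change 0.11, interval 0.01 to 0.20, edgeR adjusted p = 0.167). MCM5 had 156 and 153 CPM against 165 and 166 CPM (0.10, interval 0.01 to 0.19). For all 6 MCM genes both mutant libraries lay above both wild type libraries, where 27.0% of all tested genes did so, and their log2 fold changes ranged from 0.05 (MCM7) to 0.11. A stretch of 0.793% of MCM7's exon bases overlaps STP7, a gene on the other strand that fell (log2 fold change -0.23). The summed MCM level was 899.5 and 883.5 CPM in wild type and 944.8 and 944.6 CPM in plt1 plt2, a ratio of 1.06. These genes are known to be expressed together, so they do not count as 6 independent observations.

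PCNA1 had 100.5 and 104 CPM in wild type and 98.7 and 98.0 CPM in plt1 plt2, with an interval from -0.16 to 0.04 on the log2 scale. PCNA2 had 104 and 102 CPM against 109 and 101 CPM, and its groups overlapped. The licensing factors CDC6 and CDT1A, which load the MCM ring, overlapped between the genotypes as well, with log2 fold changes of -0.06 and 0.03.

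**Figure D4:**
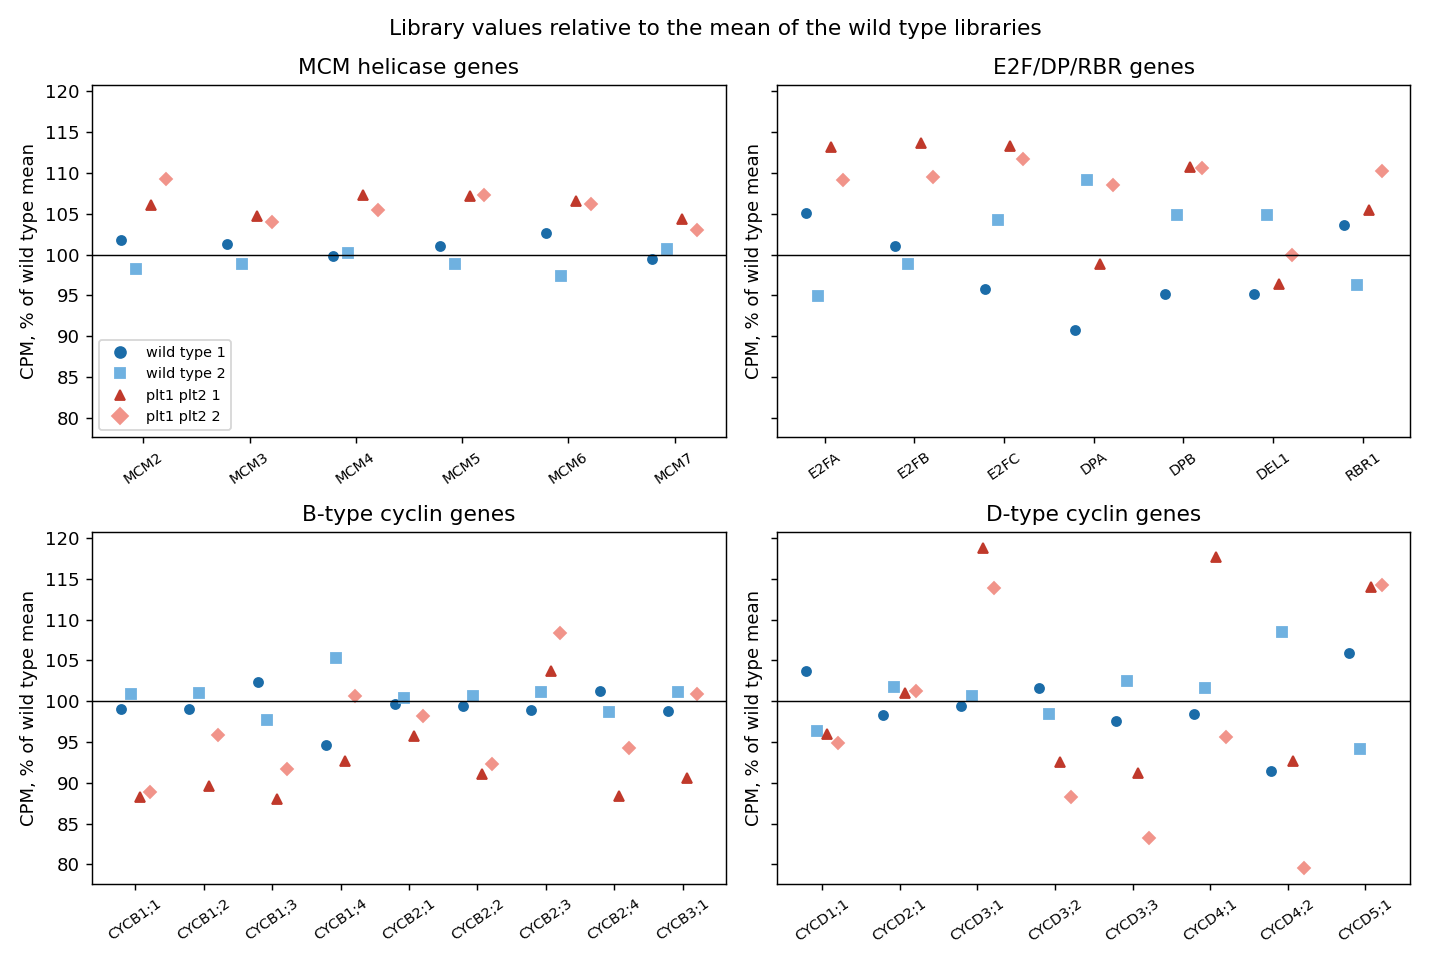
CPM of each gene in each library as a percentage of the mean of the wild type libraries (y axis) for the MCM, E2F/DP/RBR, B-type cyclin and D-type cyclin genes (x axis, 1 gene per position). Triangles and diamonds are plt1 plt2 libraries, circles and squares wild type. All 6 MCM genes have both plt1 plt2 points above both wild type points, and 6 of 9 B-type cyclins have both below.

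In the G2/M class 0 genes rose and 2 fell, CYCB1;1 and AUR2, a share of 8.33% called against 10.5% of all tested genes. A log2 fold change below 0 was found for 19 of 24, against 50.2% of all tested genes, and for 15 of 24 without plt1 plt2 1. CYCB1;1 (AT4G37490, chromosome 4, 17621886 to 17624308), the B-type cyclin much used to mark dividing cells, had 60.9 and 62.0 CPM in wild type and 54.2 and 54.6 CPM in plt1 plt2. The 4 values formed 2 separate pairs. The log2 fold change was -0.18 ± 0.04 (edgeR adjusted p = 0.0312), and its CPM fell by 11.4%. AUR2 (AT2G25880, chromosome 2, 11034652 to 11038191), an Aurora kinase of spindle and cell plate, had 28.2 and 28.1 CPM against 23.4 and 23.0 CPM. Its log2 fold change was -0.28 ± 0.05 (edgeR adjusted p = 0.00884). A gene on the other strand, which has no row in the count table, overlaps 36.9% of AUR2's exon bases. The counting is not stated to use strand. The close relative AUR1 had 62.5 and 58.6 CPM against 57.4 and 57.1 CPM (log2 fold change -0.08), and AUR3 had 19.3 and 19.2 CPM against 19.1 and 19.3 CPM (0.00).

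The B-type cyclins, whose products activate CDKs at mitosis, had 8 of 9 log2 fold changes below 0 and a median of -0.11, while the median over all tested genes was 0.00. Without plt1 plt2 1 the median was -0.06 and 6 of 9 lay below 0. CYCB1;1 was the only one of the 9 that passed, where 10.5% of all tested genes did. Both mutant libraries lay below both wild type libraries for 6 of the 9, where 27.7% of all tested genes did so. Since many mitotic genes share the MSA element, the members of this family and of the G2/M class do not count as independent observations. CYCB1;3 (-0.15, edgeR adjusted p = 0.0716), CYCB2;4 (-0.13) and CYCB2;2 (-0.13) were nearest to it, and CYCB2;3 had a value of 0.08. Of the exon bases of CYCB2;3, 22.4% match elsewhere in the genome, as do 11.3% of those of CYCB1;2. The family's summed level was 537 and 544 CPM in wild type and 493 and 520 CPM in plt1 plt2, a ratio of 0.938.

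KNOLLE, whose transcript peaks in mitosis, had 119 and 119 CPM in wild type and 108 and 108 CPM in plt1 plt2. The pairs were separate, yet the gene did not pass (log2 fold change -0.14, edgeR adjusted p = 0.0551), and 33.5% of its exon bases overlap NPQ1 on the other strand, at 8.87 and 8.79 CPM. The B-type CDKs did not pass, with log2 fold changes from -0.08 (CDKB2;2) to 0.05 (CDKB2;1), and their summed level had a ratio of 0.997. CDKB2;1 had 131 and 131 CPM against 133 and 138 CPM. CDC20.1 had 175 and 177 CPM against 170 and 175 CPM, with an interval of -0.13 to 0.06. Among the A-type cyclins CYCA2;1 had 121 and 133 reads in wild type and 191 and 158 in the mutant (log2 fold change 0.42, edgeR adjusted p = 0.146), the largest size in the class. CYCA1;1 had 48.2 and 47.1 CPM against 44.2 and 42.3 CPM (-0.14, edgeR adjusted p = 0.109).

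Promoter content and change were set side by side within each class. The 15 G2/M genes with AACGG had a median log2 fold change of -0.08 and included both called genes, and the 9 without had a median of -0.03. In the S class the 5 MCM genes with an E2F site had a median of 0.09, and the 5 genes without had 0.03. The genes without were MCM7 (0.05), PCNA1, PCNA2, CDC6 and CDT1A, so motif and gene family can hardly be told apart here. For the inhibitors the order was the other way, with 0.08 for the 5 genes with AACGG and 0.04 for the 3 tested genes without. For the G1/S class the 4 genes with an E2F site had 0.08 and the 12 without had 0.07. These are descriptions of few genes and no test was made.

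The inhibitors held the largest called change. KRP2 (AT3G50630, chromosome 3, 18800306 to 18801595), a KIP-related protein that binds CDKA complexes and is known to be lowered by auxin in lateral root initiation, had 255 and 240 reads in wild type and 181 and 131 in plt1 plt2. That is 4.36 and 4.22 CPM against 2.85 and 2.40 CPM, so both mutant libraries lay below both wild type libraries. The log2 fold change was -0.70 ± 0.15 (edgeR adjusted p = 0.0143), with an interval from 0.486 to 0.775 times the wild type level. KRP2 made up 7.16% and 7.05% of KRP transcripts per length in wild type and 4.53% and 4.13% in plt1 plt2. The most abundant KRP genes, KRP4 (40.5 and 41.2 CPM against 42.0 and 42.0 CPM) and KRP3 (19.0 and 19.2 CPM against 21.8 and 18.6 CPM), did not pass. CB5-B on the other strand overlaps 38.7% of the exon bases of KRP4. It had 54.0 CPM in wild type and 59.8 CPM in plt1 plt2 and did not pass. The summed KRP level overlapped between the genotypes, 82.4 and 81.9 CPM against 85.3 and 80.5 CPM.

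SIM, which promotes endoreduplication in trichomes, had 9 and 4 reads in wild type and 32 and 10 in plt1 plt2. Its log2 fold change of 1.62 did not pass (edgeR adjusted p = 0.149), and its interval ran from 0.19 to 3.05. A gene on the other strand overlaps 31.4% of its exon bases. LGO, which specifies giant cells in sepals, had 0 and 1 read in wild type and 0 and 2 in plt1 plt2, and a count of 0 allows up to 0.0513 CPM in the wild type library and 0.0473 CPM in the mutant library. KRP1 was at 0.467 against 0.501 CPM and KRP7 at 0.565 against 0.810 CPM, and neither passed.

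Class totals were set beside each other in every library. The summed G2/M level was 1564 and 1562 CPM in wild type and 1472 and 1514 CPM in plt1 plt2, a ratio of 0.955. The summed S level was 1185 and 1170 CPM against 1233 and 1226 CPM (1.04), and the G1/S level was 730 and 729 CPM against 762 and 757 CPM (1.04). The inhibitors overlapped, at 82.6 and 82.0 CPM against 85.8 and 80.7 CPM. The S total divided by the G2/M total, a ratio that library scaling cannot move, was 0.758 and 0.749 in wild type and 0.838 and 0.810 in plt1 plt2. Within the S total, the MCM sum had a plt1 plt2 to wild type ratio of 1.06. The PCNA sum had 0.989, and the sum of CDC6 and CDT1A had 1.01. Median log2 fold changes were 0.07 for G1/S, 0.06 for S, -0.06 for G2/M and 0.06 for the inhibitors. Without plt1 plt2 2 the G1/S median was 0.0449. The inhibitor median was 0.00501 without wild type 2 and 0.00531 without plt1 plt2 1, with 4 genes above 0 and 4 below in either case, and 0.00891 over the 5 genes with a mean of 50 or more reads. With 2 libraries against 2, an exact permutation test of such totals cannot reach a p below 0.333, so none was made.

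Another 59 genes of the cell cycle, from a list outside the core set, were looked at in the same way. Of these 57 had a row and 56 were tested, and 1 rose and 0 fell, a share of 1.79% called against 10.5% of all tested genes (DESeq2 called 2 higher and 0 lower, and 9 had an unadjusted p under 0.05 in edgeR, a level that 24.6% of all tested genes reached). TSO2, a small subunit of ribonucleotide reductase that supplies deoxynucleotides, had 223 and 231 CPM in wild type and 257 and 253 CPM in the mutant (log2 fold change 0.17 ± 0.04, edgeR adjusted p = 0.0337). The call ended without wild type 1 (0.214) and without wild type 2 (0.108). POLA1, the catalytic subunit of DNA polymerase alpha, had 149 and 130 CPM against 155 and 169 CPM and did not pass (0.22, adjusted p = 0.0674), while DESeq2 called it (0.0279), as did edgeR without wild type 1 (0.025) and without plt1 plt2 1 (4.1e-05). CYCD6;1, a D-type cyclin known as a target of SHORT-ROOT and SCARECROW in root formative divisions, had 2.65 and 2.06 CPM against 1.99 and 2.07 CPM (log2 fold change -0.22, edgeR adjusted p = 0.542), and its groups overlapped. The inhibitor genes SMR2 (2.51 and 2.83 CPM against 1.78 and 1.91 CPM) and SMR3 (3.85 and 3.13 CPM against 2.51 and 2.80 CPM) did not pass, and both had lower values in plt1 plt2. SMR7 (0.667 and 0.774 CPM against 1.09 and 0.934 CPM) and SMR4 (1.33 and 1.37 CPM against 1.53 and 1.39 CPM) did not pass either, and both had higher values there. The median log2 fold change over the list was -0.01.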

How the data were processed

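Read counts per gene were deposited by the authors for 4 libraries, 2 per genotype, as whole numbers that were not normalized. The build named in the submitters' processing notes is TAIR10, and the tools named there are STAR 2.7.2b, Trim Galore 0.5.0 and DESeq2. The counting tool, annotation and use of strand are not given in the sources used here, so reads of overlapping or near-identical genes may be split.

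Counts were scaled by TMM in edgeR 4.0.16 (R 4.3.3), filtered by filterByExpr, which left 19325 of 23922 loci, and tested with the quasi-likelihood test on genotype alone. The fit was also run on simulated data. The outcome of that run is not reported here and lends no support to the calls. The SE is the size of the log2 fold change over the square root of F, and 95% intervals use the t quantile. The limit that a count of 0 allows (3 reads) covers counting error only. Levels between genes are CPM per kb of merged exons (RefSeq, TAIR10.1, 59 of 59 genes matched). Near-identical sequence was searched with BLAST 2.17.0 (95% identity over 75 bases). Motifs were searched on both strands of 300 bases. Upstream sequences are printed for a selection of genes, and an item that could not be printed is not reported here.

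The members, classes, gene lists and tests were chosen with earlier results of these data known. Genes named were PLT1, PLT2, every called member, in each class the 2 highest and the 2 with the largest change, untested members, called genes of the second list and CYCD6;1, with others where a family is described. The planned comparison of protein sequences was not run.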

Additional observations from a re-analysis of the deposited data

How the results depend on the processing

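The counts of called genes were recomputed with DESeq2 1.42.0, with RLE scaling, with no filter on low counts, with a mean of 50 or more reads, with the replicate number as a block and without each library. Over the core genes and these alternatives, 499 pairs of gene and alternative kept their side of the threshold, 16 lost a call and 4 gained one, and no called value changed sign. The cause was not tested. Nothing in the labels says what libraries of the same number share. Their deviations from the group means had a correlation of -0.0896 across 19325 genes. This single value cannot show whether they were made together. With the replicate block, 2 core genes were lower in place of 4, G1/S had 0 lower, G2/M had 1 lower and the other cell cycle genes had 0 higher. CYCB1;1 (adjusted p = 0.0582, edgeR), CYCD3;3 (0.0532) and TSO2 (0.08) were the calls lost with that block. DESeq2 left 1 G2/M gene lower. Both DESeq2 and edgeR with no filter called 2 of the other cell cycle genes higher.

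Leaving out 1 library gave 0 to 2 core genes higher and 0 to 4 lower. The ranges were 0 to 1 higher and 0 to 2 lower for G1/S, 0 to 3 lower for G2/M, 0 to 1 higher and 0 to 1 lower for the inhibitors, and 0 to 2 higher and 0 to 1 lower for the other cell cycle genes. Over all genes they were 433 to 1275 higher and 606 to 1751 lower. With a library left out, the lone sample of its genotype is assumed to vary like the other group. Reads of LGO, SIM, KRP1 and KRP7 were too few to bound a change within 1.5-fold.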
